A study of Mus musculus with 55 samples.

Results

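Glucagon, somatostatin, pancreatic polypeptide, peptide YY and ghrelin are made by the islet cells that are not β cells. Their transcripts (Gcg, Sst, Ppy, Pyy and Ghrl), the transport proteins transthyretin (Ttr) and retinol binding protein 4 (Rbp4), and the δ cell transcription factor Hhex were followed in bulk RNA-seq of mouse islets. The 8 genes were taken by name from a table of read counts for 47937 genes, and all 8 were among the 18828 genes with enough reads to be tested. The islets came from male C57B6/J mice of 3 genotypes and 2 ages, in 16 libraries. WT was labelled wild type, HET heterozygous and KO Eed -/-. In KO mice the floxed Eed alleles are deleted by a Cre driven by an insulin promoter (RIP-cre), so β cells are targeted and the α, δ and PP cells of the same islet are not. Whether WT and HET animals carried the Cre is not given in the labels. At 8 weeks there were 3 WT, 3 HET and 3 KO libraries, and at 25 weeks 3 WT, 2 HET and 2 KO libraries. Islets were hand-picked and cultured, a library came from 1 or 2 animals, and at least 4 animals were pooled for a KO library at 25 weeks. Nothing says which libraries share animals, so p-values measure the spread between these libraries. A chromatin-state map of WT islets, made by the study from averaged replicates and so without an error, gave the state at each gene's start site.

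Each islet endocrine type is known by the hormone it secretes. α cells secrete glucagon, which raises blood glucose. δ cells secrete somatostatin, which restrains both α and β cells. PP (γ) cells secrete pancreatic polypeptide, and rare ε cells secrete ghrelin. These cells are a minority of the mouse islet, and their hormone transcripts are among the most abundant in it. Eed is a core subunit of Polycomb repressive complex 2, which methylates lysine 27 of histone H3 and keeps genes of other lineages silent. In a β cell the genes of the other hormones are therefore candidates for Polycomb marking. The comparison of KO with WT asks whether their transcripts change in whole islets when the complex is lost from β cells. These transcripts also come from the untargeted cells, so a gain within β cells that is small beside them could be missed.

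In WT islets 6 of the 8 start sites lay in states that the study annotated as bivalent (K, L and M), with both H3K4me3 and H3K27me3, as did 3739 (23.2%) of the 16137 tested genes that had a state at the start. Gcg (chr2:62474530-62483650, minus strand, GRCm38), Sst (chr16:23889573-23890958, minus strand) and Pyy (chr11:102106676-102107832, minus strand) had state M, the bivalent state with high H3K27me3. State M covered the whole window of 5000 bp on either side of the Sst start. Hhex (chr19:37434810-37440731, plus strand) and Rbp4 (chr19:38116629-38125281, minus strand) had state L, the bivalent state with high H3K4me3. Ppy (chr11:102099930-102101319, minus strand), the neighbour of Pyy, had state K, the third bivalent state. Ttr had state A, an active start, and Ghrl (chr6:113716119-113719880, minus strand) had state F, a proximal and elongation state. A segment of state B, active chromatin just past a start, lay inside the state L region of Rbp4 and held a second RefSeq start 470 bp into the gene. The map was made from whole islets, in which β cells are the majority, so it does not give the state within α, δ or PP cells.

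**Figure D1:**
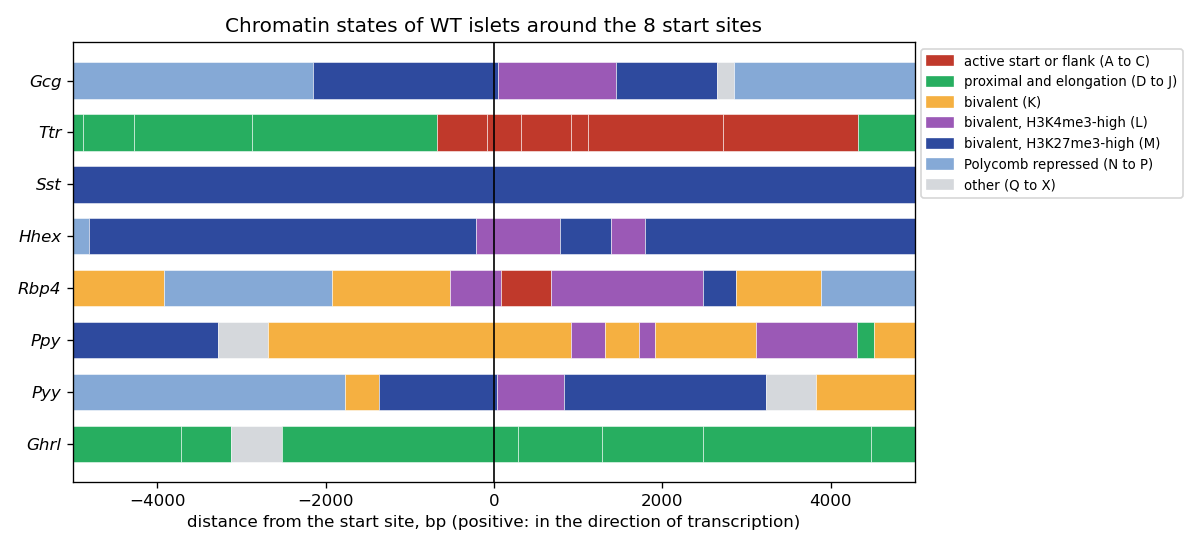
Chromatin state in WT islets by distance from the start site (bp, positive in the direction of transcription), 1 row for each gene, coloured by class of state. Sst is in state M from -5000 to 5000 bp, whereas Ttr has active states and Ghrl has proximal and elongation states at the start.

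Sequences just before start sites of 5 of these genes are shown. The start site state is one of the measurements, and the sequences differ in base composition. They are RefSeq promoters of GRCm38.p6, 5′ to 3′ on the gene's strand. The RefSeq start of Sst lies 114 bp inside the gene as annotated above, so its stretch lies within that gene. Both starts of Sst had state M. Capitals mark TATAAA on either strand in Gcg and Ppy, TGACGTCA (the cAMP response element) in Sst, and every CG in Hhex and Rbp4.
Gcg, chr2:62483654-62483773: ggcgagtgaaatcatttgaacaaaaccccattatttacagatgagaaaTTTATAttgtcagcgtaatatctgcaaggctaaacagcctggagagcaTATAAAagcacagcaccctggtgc
Sst, chr16:23890874-23890903: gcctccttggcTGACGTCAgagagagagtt
Ppy, chr11:102101320-102101439: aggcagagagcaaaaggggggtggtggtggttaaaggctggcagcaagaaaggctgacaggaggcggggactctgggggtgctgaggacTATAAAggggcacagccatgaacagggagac
Hhex, chr19:37434690-37434809: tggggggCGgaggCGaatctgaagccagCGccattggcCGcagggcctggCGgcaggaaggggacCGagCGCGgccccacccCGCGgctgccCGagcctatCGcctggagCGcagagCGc
Rbp4, chr19:38125322-38125441: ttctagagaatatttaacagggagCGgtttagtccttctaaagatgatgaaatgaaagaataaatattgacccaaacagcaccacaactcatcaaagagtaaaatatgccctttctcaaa

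TGACGTCA began 48 bases before the RefSeq start of Sst and was absent from the other 6 promoters searched (7 of the 8 genes had a promoter in the table). It occurred on either strand in the 250 bases before the start of 508 of 32851 RefSeq promoters (1.55%). TATAAA began 24 bases before the start of Gcg and 31 bases before that of Ppy, and 12.4% of all promoters held it. Hhex had a GC content of 76% in its 250 bases, against 40.8% for Rbp4 and a median of 52.4% over all promoters. The 120 bases shown held 14 CG in Hhex and 1 in Rbp4, although both genes had state L at the start.

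Library depth ranged from 4645393 counted reads (WT, 25 weeks, replicate 2) to 22925359. The deleted gene checked the labels: Eed was 23.9, 33.1 and 31.2 CPM (reads scaled to a common library size with edgeR's TMM factors) in WT and 14.9, 13.4 and 14.8 in KO at 8 weeks, and 28.3, 22.0 and 19.3 in WT and 15.6 and 14.2 in KO at 25 weeks. KO lay below WT without overlap at both ages, by -1.03 (adjusted p = 0.0223) and -0.63 (adjusted p = 0.0804) on the log2 scale. At 8 weeks 4.84% and at 25 weeks 15.9% of all genes lay lower in KO without overlap. Eed in HET lay between WT and KO, at 17.1 to 20.5 CPM at 8 weeks and 16.3 to 16.9 CPM at 25 weeks. At 25 weeks HET was thus close to KO. Interferon-induced genes (Ifit1, Ifit3, Isg15, Irf7 and Rsad2) summed to 2840 to 4050 CPM in 4 libraries, WT replicates 3 and 4 and KO replicates 4 and 5 at 8 weeks, and to at most 87.4 CPM in the other 12. No HET library and no 25 week library was among these 4 (the interferon-high libraries). Acinar genes summed to 422000 CPM in KO replicate 2 at 25 weeks and to 12700 CPM in KO replicate 3, the highest and the lowest of all 16 libraries. Insulin genes (Ins1 and Ins2) took 0.891% and 2.21% of reads in these 2 KO libraries and 9.40 to 18.9% in the other 14. TMM factors were 0.76 and 1.5 in the same 2 libraries and 0.836 to 1.12 in the others. No pair of replicates agreed within counting noise.

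Levels per exon length (RPKM, CPM divided by the summed exon length in kilobases) put the 8 genes in the same order in WT and KO islets at 8 weeks. In WT the means were 15000 for Gcg, 6490 for Ppy, 2900 for Sst, 1250 for Pyy, 730 for Ttr, 71.3 for Rbp4, 10.6 for Ghrl and 2.86 for Hhex, and no 2 neighbours in this order overlapped between libraries. Gcg was the gene with the 5th and Ppy with the 8th highest RPKM of all genes in this group. Exon length counts all annotated isoforms and is 5056 bp for Hhex, a gene of 5922 bp, which lowers its RPKM. In WT at 25 weeks Ppy overlapped Sst, and Hhex (2.06) overlapped Ghrl (1.46), which had moved to the last place. In KO at 25 weeks Gcg (7780) overlapped Ppy (6560), Sst (1720) overlapped Pyy (1480), and Ghrl overlapped Hhex.

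**Figure D2:**
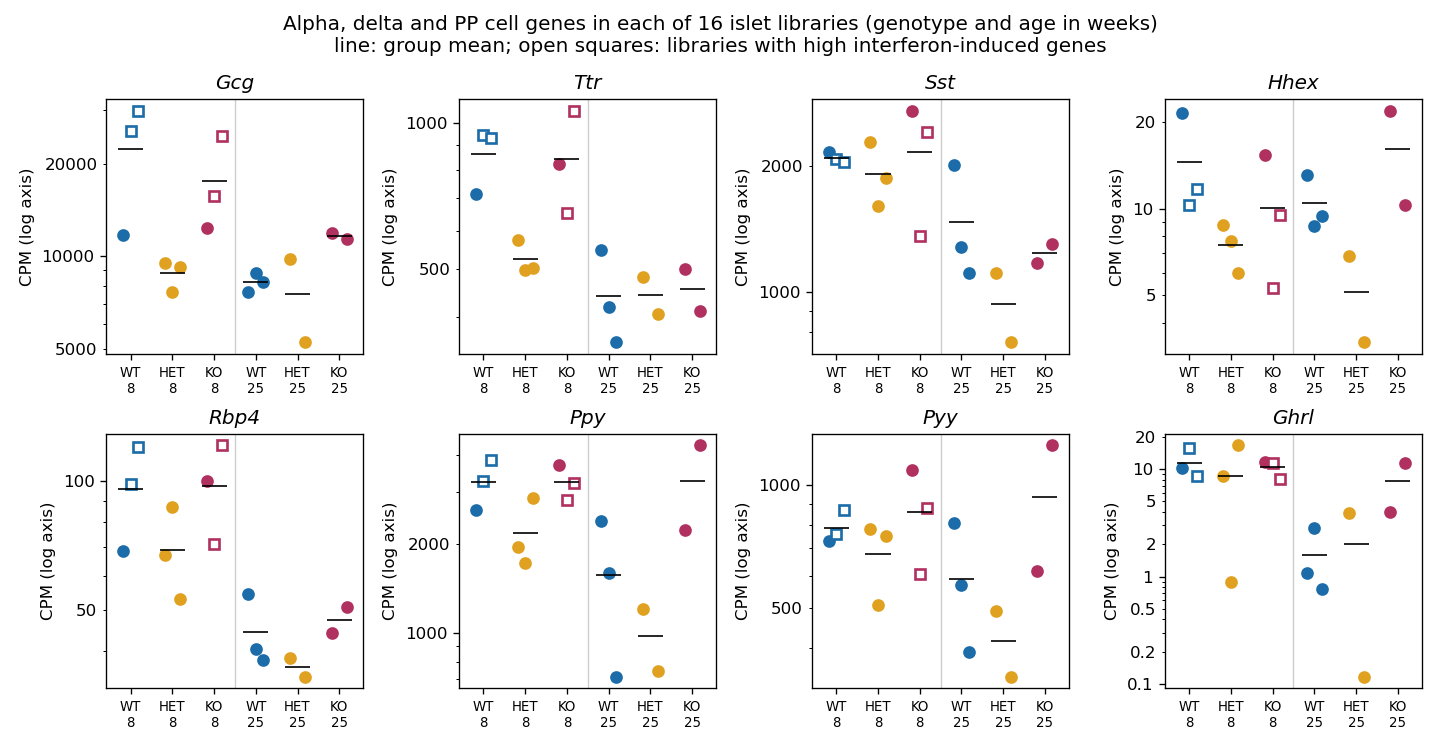
CPM of the 8 genes in each of 16 libraries (log axis), by genotype and age in weeks. Lines are group means and open squares are the 4 interferon-high libraries, whose Gcg lies between 15700 and 29800 CPM against 5240 to 12400 CPM in the other 12.

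None of the 8 genes passed an adjusted p of 0.05 in any of the 7 comparisons made with edgeR's quasi-likelihood test. Over all genes tested, 0.627% passed between KO and WT at 8 weeks, and 8.99% did at 25 weeks, 5.91% higher and 3.08% lower in KO. In whole islets, fewer cells of a type and less RNA per cell cannot be told apart. Nor would a gain in β cells be seen if it were small beside the reads from the other cells. By state, 29.4% of tested genes with state M at the start were called higher in KO at 25 weeks, 17.8% of those with state L and 8.04% of those with state K. The members with these states, 3, 2 and 1 in number, were not among them. With so few members in each state, this does not set them apart from other genes of that state. All 8 β cell genes listed (Ins1, Ins2, Iapp, Slc2a2, Mafa, Nkx6-1, Pdx1 and Ucn3) fell in the same comparison. Of 8 genes shared by endocrine cells 6 fell, the granule protein gene Chgb rose by 3.26 on the log2 scale (adjusted p = 3.75e-05), and Chga had 0.20, while none of the acinar, endothelial, macrophage, mesenchymal and adipocyte genes listed passed.

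Gcg, the glucagon precursor of α cells, was 11700, 25700 and 29800 CPM in the 3 WT libraries and 12400, 15700 and 24700 CPM in the 3 KO libraries at 8 weeks. The spread within each genotype was wide, and the groups overlapped. KO against WT was -0.35 on the log2 scale, with a standard error of 0.45 (adjusted p = 0.881). At 25 weeks Gcg was 7660, 8840 and 8220 CPM in WT and 11900 and 11400 CPM in KO. Here both KO libraries lay above all 3 WT libraries, as they did for 24.6% of all genes, and the log2 fold change of 0.50 had a 95% interval from -0.58 to 1.57 (adjusted p = 0.616). The separation depended on the scaling. In CPM without TMM factors, the KO libraries had 9040 and 17000 and the WT libraries 7560, 9910 and 7080, and the groups overlapped.

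Gcg was higher in each of the interferon-high libraries than in any of the other 12. In the 4 interferon-high libraries its median was 25200 CPM, in the other 5 libraries of 8 weeks 9540 CPM (7660 to 12400 CPM), and at 25 weeks 8840 CPM. WT replicate 1 and KO replicate 1, the interferon-low libraries of these genotypes at 8 weeks, had 11700 and 12400 CPM. Sst had medians of 2060 and 2160 CPM in the high and low libraries of 8 weeks, and Ins1 had 34000 and 37600 CPM, each with overlap. Ttr (652 to 1060 against 498 to 824 CPM), Rbp4, Ppy, Pyy, Hhex and Ghrl overlapped between these libraries too. Medians were 5.97 and 2.35 CPM for Ghsr, the ghrelin receptor of δ cells, and 96.8 and 65.9 CPM for Gc, the vitamin D binding protein of α cells, each without overlap, both chosen here after their values were seen. The split was drawn after the data were seen, and the share of all genes that it separates without overlap was not computed. It therefore does not set Gcg apart from other genes, and the interferon-low libraries include every HET library. The part of the interferon genes in these levels was not tested.

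Ttr, a carrier of thyroid hormone and retinol that is abundant in α cells, was 716, 946 and 934 CPM in WT and 824, 652 and 1060 CPM in KO at 8 weeks. At 25 weeks it was 549, 419 and 354 CPM in WT and 500 and 410 CPM in KO. The groups overlapped at both ages, and the intervals of the log2 fold change (-0.55 to 0.48 at 8 weeks and -0.53 to 0.62 at 25 weeks) were the narrowest of the 8 genes.

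Sst, the somatostatin precursor, was steady in the 3 WT libraries of 8 weeks at 2160, 2070 and 2040 CPM and ranged from 1360 to 2700 CPM in KO. At 25 weeks the WT libraries had 2010, 1280 and 1110 CPM and the KO libraries 1170 and 1300 CPM. The log2 fold change of KO against WT was 0.04 (standard error 0.32) at 8 weeks and -0.25 (0.36) at 25 weeks, with adjusted p-values of 0.985 and 0.745.

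Hhex, a homeodomain factor that δ cells require, was low. It was 21.4, 10.3 and 11.7 CPM in WT and 15.3, 5.32 and 9.52 CPM in KO at 8 weeks. At 25 weeks it was 13.1, 8.73 and 9.44 CPM in WT and 21.8 and 10.3 CPM in KO. The log2 fold change of 0.63 at 25 weeks had an interval from -0.39 to 1.65, and it was -0.019 without KO replicate 2, the library with the high acinar genes. Sst per read of Hhex was 126 and 53.8 in the KO libraries at 25 weeks and 101 to 312 in the other 14 libraries.

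Rbp4, the retinol carrier of blood, ran from 68.8 to 120 CPM in WT and from 71.1 to 121 CPM in KO at 8 weeks. At 25 weeks it was 54.5, 40.6 and 38.3 CPM in WT and 44.2 and 50.7 CPM in KO. Genotype groups overlapped at both ages, while every 25 week WT or KO library lay below every 8 week library of the same genotype.

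Ppy, the pancreatic polypeptide precursor, was 2600, 3270 and 3870 CPM in WT and 3700, 2820 and 3210 CPM in KO at 8 weeks, and KO against WT was 0.00 on the log2 scale (standard error 0.42). At 25 weeks the WT libraries had 2400, 1600 and 710 CPM, the HET libraries 1210 and 746 CPM, and the KO libraries 2240 and 4320 CPM. One KO library was thus within the WT range and the other was the highest of the 16. The log2 fold change of 1.06 had an interval from 0.06 to 2.07 and an adjusted p of 0.19.

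Pyy, a member of the same peptide family in several islet cell types and the gut, was 729, 760 and 871 CPM in WT and 1090, 605 and 879 CPM in KO at 8 weeks. At 25 weeks it was 810, 569 and 391 CPM in WT and 617 and 1250 CPM in KO. The same KO library, replicate 3, was the highest of the 16 for both Pyy and Ppy. Pyy differed by 0.66 on the log2 scale at 25 weeks (standard error 0.38, adjusted p = 0.322), and without KO replicate 3 the values were 0.46 for Ppy and 0.0056 for Pyy.

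Ghrl, the ghrelin precursor, was 10.2, 15.6 and 8.58 CPM in WT and 11.6, 11.4 and 8.05 CPM in KO at 8 weeks. At 25 weeks it was 1.09, 2.86 and 0.774 CPM in WT, which is 5, 38 and 10 reads, and 4.03 and 11.5 CPM in KO, which is 53 and 284 reads. Both KO libraries lay above all WT libraries, as they did for 24.6% of all genes. Of 2 HET libraries (3.87 and 0.117 CPM), 1 lay above WT as well. In CPM without TMM factors, KO replicate 2 had 3.06 and WT replicate 3 had 3.21, so that KO and WT overlapped. The log2 fold change of KO against WT at 25 weeks was 2.26 with an interval from -0.06 to 4.57 (adjusted p = 0.229). In the fit of the 11 WT and KO libraries alone it was 2.19 and passed the threshold (adjusted p = 0.0494), and without KO replicate 3 it was 1.23. An antisense transcript and a second gene, both on the opposite strand, overlap Ghrl by 3 and 695 bp. Whether reads were counted by strand is not given in the sources used here.

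**Figure D3:**
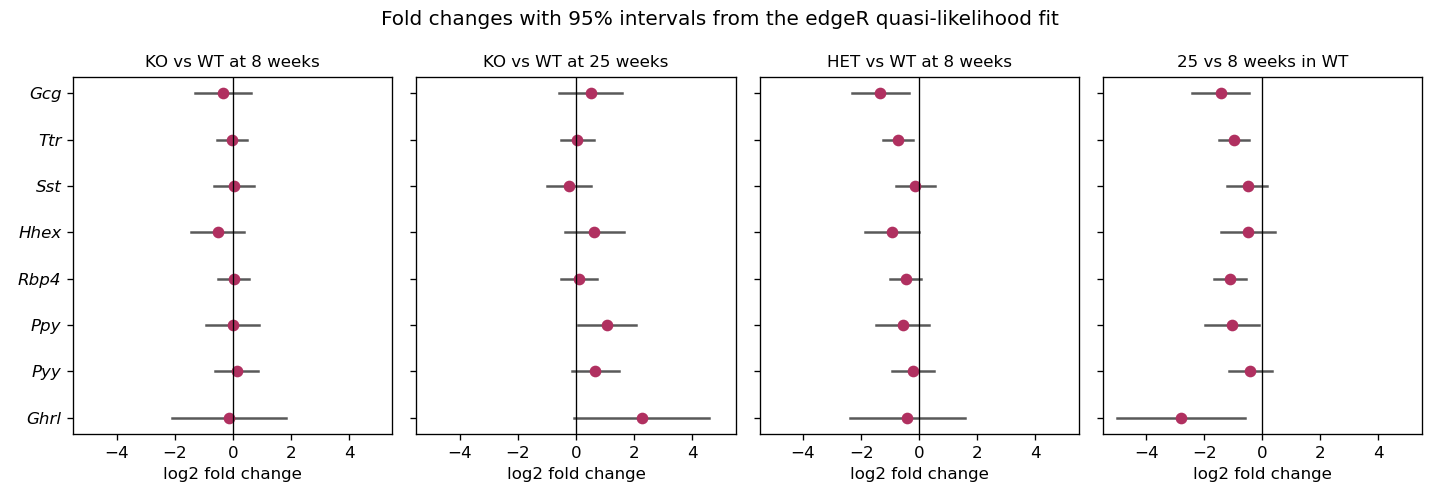
Log2 fold change (points) with 95% intervals (bars) of the 8 genes in 4 comparisons. The intervals of KO against WT at 25 weeks hold 0 for 7 genes and start at 0.06 for Ppy, and those of WT at 25 against 8 weeks lie below 0 for Gcg, Ttr, Rbp4, Ppy and Ghrl.

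Set against insulin, the hormone transcripts of KO islets at 25 weeks lay outside the range of all other libraries. Reads of Gcg per read of Ins1 were 5.55 and 3.79 in the 2 KO libraries and 0.117 to 1.04 in the other 14. The ratio of Ppy to Ins1 was 1.05 and 1.44 against 0.0167 to 0.134, and that of Sst to Ins1 was 0.546 and 0.434 against 0.017 to 0.0744. Ins1 itself was 47400, 32800 and 26800 CPM in WT and 2140 and 3000 CPM in KO (log2 fold change -3.79, adjusted p = 0.00212), so the denominator moved more than the hormone genes did.

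Ratios among the 3 hormones do not depend on scaling and moved less. Ppy per read of Sst was 1.92 and 3.32 in KO and 1.19, 1.25 and 0.64 in WT at 25 weeks, without overlap. Gcg per read of Sst was 10.2 and 8.72 in KO and 3.8, 6.93 and 7.41 in WT, also without overlap. The other 14 libraries spanned 0.64 to 2.07 for Ppy per read of Sst, a range that held 1 of the KO values, and the 4 interferon-high libraries had 10.3 to 14.6 for Gcg per read of Sst. The exact 2-sided permutation p was 0.2 for each of these 2 ratios (adjusted p = 0.533 over 8 tests of 4 ratios at 2 ages), the smallest that 2 libraries against 3 allow. Gcg per read of Ppy at 25 weeks had geometric means of 3.74 in KO and 5.89 in WT (log2 difference -0.66, exact p = 0.4), and KO ran from 2.63 to 5.31. At 8 weeks Ppy per read of Sst had geometric means of 1.56 in KO and 1.53 in WT (exact p = 1).

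**Figure D4:**
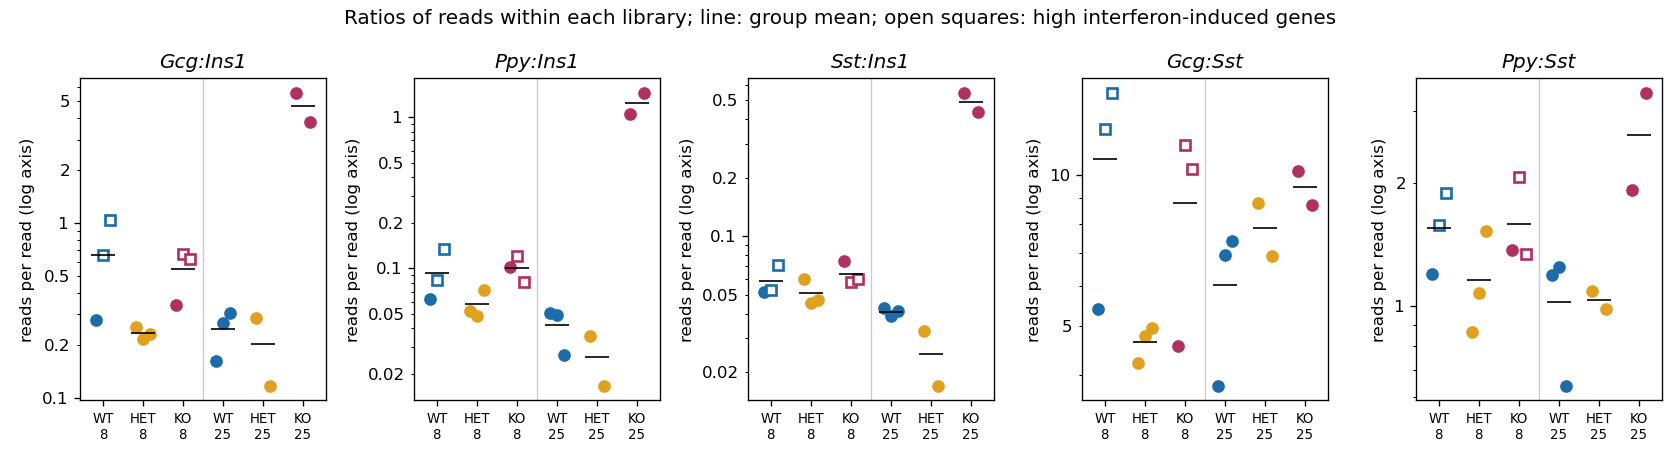
Reads of one gene per read of another within each library (log axes), by genotype and age in weeks, with lines at the group means and open squares for interferon-high libraries. Ratios to Ins1 are highest in the 2 KO libraries of 25 weeks (5.55 and 3.79 for Gcg), and Gcg per Sst is highest in the interferon-high libraries.

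The HET islets of 8 weeks had the lowest mean of the 3 genotypes for all 8 genes. The share of all genes with their lowest mean there was not computed, and several of the 8 varied together, so the count is a description only. The interferon-high libraries of that age were all WT or KO. Gcg was 9540, 7660 and 9240 CPM in HET at 8 weeks, below all WT libraries, a difference of -1.34 on the log2 scale (standard error 0.46, adjusted p = 0.261). Ttr (576, 498 and 504 CPM) and Hhex (8.78, 7.72 and 5.99 CPM) lay below all WT libraries too, and 9.09% of all genes did so. With edgeR 0 genes passed the adjusted threshold in this comparison, 2743 (14.6%) had an unadjusted p under 0.05, and DESeq2 called 400 genes, Gcg among them (adjusted p = 0.0144). Without the interferon-high libraries the difference was -0.41 for Gcg, -0.45 for Ttr and -1.52 for Hhex, against a single WT library. At 25 weeks HET and WT overlapped for 7 of the 8 genes, and Hhex lay below WT at 6.86 and 3.44 CPM, as 7.06% of all genes did. There edgeR called 0 genes, 210 (1.12%) had an unadjusted p under 0.05, and DESeq2 called 2.

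In WT all 8 log2 fold changes of 25 against 8 weeks were negative, with a median of -1.01 against -0.01 over all genes tested. The 2 ages did not overlap for Gcg, Ttr, Sst, Ppy, Ghrl and Rbp4, where 8.88% of all genes lay lower at 25 weeks without overlap. In CPM without TMM factors, the ages overlapped for Gcg, Sst and Ppy, and stayed apart for Ttr, Ghrl and Rbp4. Ghrl had the largest difference, -2.81 (standard error 1.02), followed by Gcg at -1.44 (0.46), Rbp4 at -1.11 (0.26), Ppy at -1.05 (0.43) and Ttr at -0.97 (0.24). Adjusted p-values ran from 0.232 to 0.596, and 0.0212% of all genes passed. DESeq2 called 234 genes (1.24% of those tested with edgeR), and 3 of the 8 were among them, Gcg (adjusted p = 0.0143), Ttr (0.0126) and Rbp4 (0.0176). Of the 3 WT libraries of 8 weeks 2 were interferon-high, and without the interferon-high libraries the differences were -0.51 for Gcg, -0.71 for Ttr, -0.64 for Rbp4, -0.73 for Ppy and -2.65 for Ghrl, against 1 library of 8 weeks.

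In KO islets Rbp4 (-1.04, standard error 0.29, adjusted p = 0.0866), Ttr (-0.89, 0.27, adjusted p = 0.113), Sst (-0.80, 0.36, adjusted p = 0.274) and Gcg (-0.60, 0.51, adjusted p = 0.58) lay lower at 25 weeks without overlap, as did 11.2% of all genes. In CPM without TMM factors, Gcg and Sst overlapped between ages. The Gcg difference was -0.085 without the interferon-high libraries, against KO replicate 1 of 8 weeks alone. It was -0.27 without KO replicate 5 of 8 weeks. Ppy (0.02), Pyy (0.12) and Hhex (0.67) overlapped between ages, as did Ghrl (-0.41). Background here was 2.51% of genes passing, and DESeq2 called 1165 genes (6.19%), Rbp4 (adjusted p = 0.02) and Ttr (0.0165) among them. The difference between the KO effects at 25 and 8 weeks, tested as an interaction, passed for 0.478% of all genes and for none of the 8. It was 2.40 for Ghrl (standard error 1.41), 1.15 for Hhex (0.64), 1.07 for Ppy (0.63) and 0.84 for Gcg (0.67). Without the interferon-high libraries, with WT replicate 1 and KO replicate 1 alone at 8 weeks, it was 0.42 for Gcg and 0.56 for Ppy. Leaving out 1 KO library of 25 weeks gave 0.51 for Hhex (without replicate 2), and 0.47 for Ppy and 1.39 for Ghrl (without replicate 3).

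Of the 5 further α cell genes reported here, 4 rose in KO at 25 weeks and 1 fell. The list was shortened after its values were known, so this count does not stand for α cell genes as a group. The homeodomain genes Irx1 (1.53, 3.46 and 2.17 CPM in WT; 8.29 and 12.7 CPM in KO) and Irx2 (11.1, 7.52 and 5.18 CPM; 32.6 and 34.2 CPM) rose by 2.10 and 2.09 on the log2 scale (adjusted p = 0.00395 and 0.00212), and both had state L at the start. Gc rose by 2.05 (adjusted p = 0.00407), and the POU factor Pou3f4 went from 1 read over 3 WT libraries to 53 reads over 2 KO libraries (adjusted p = 0.00458). Slc7a2, an arginine transporter, fell by 1.95 (adjusted p = 0.0177). Leaving out KO replicate 3 ended the call for Irx1, leaving out either KO library or WT replicate 3 ended that for Slc7a2, and the replicate block ended that for Pou3f4.

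Among 3 further δ cell genes, the leptin receptor gene Lepr rose from 2.62, 1.35 and 2.24 CPM in WT to 17.9 and 15.6 CPM in KO (log2 fold change 3.04, adjusted p = 0.000868). The fatty acid receptor Ffar4 (0.90, adjusted p = 0.107) and Ghsr (0.15, and -0.85 without KO replicate 3) did not pass. Of 5 further PP and ε cell genes 4 were tested, and the helix-loop-helix gene Id4 rose (1.47, adjusted p = 0.0447), a call that 18 of 25 alternatives ended. Of 6 tested genes of gut endocrine cells, 2 were called higher in KO, the hormone gene Cck and Tph1, an enzyme of serotonin synthesis, and the list summed to 95 to 171 CPM in KO at 25 weeks and at most 7.32 CPM in every other library. Of 5 duct genes 3 were called higher (Krt19, Spp1 and Sox9) and 2 did not pass, Cftr (2.25, adjusted p = 0.307) and Krt7 (-0.74, adjusted p = 0.0536), which was 218, 188 and 168 CPM in WT and 104 and 125 CPM in KO. The duct genes had sums of 557 to 618 CPM in KO and 220 to 284 CPM in WT, and their part in the changes was not tested.

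Receptors and processing enzymes of the hormones changed in both directions. Of 8 receptors tested out of 11, the somatostatin receptors Sstr1 (3.11, adjusted p = 0.018) and Sstr2 (2.10, adjusted p = 0.0118) rose and the GLP-1 receptor Glp1r fell (-2.96, adjusted p = 0.0122). Sstr2 was 2.62, 1.66 and 2.40 CPM in WT and 7.91 and 10.9 CPM in KO. The glucagon receptor Gcgr differed by -0.09 (adjusted p = 0.944). Of the 5 processing genes the convertases Pcsk2, which makes glucagon from its precursor, and Pcsk1 fell by 1.34 and 0.94 on the log2 scale (adjusted p = 0.0115 and 0.0477). Pcsk2 was 2520, 2680 and 2310 CPM in WT and 874 and 1110 CPM in KO. The Pcsk1 call was lost in 19 of 25 alternatives. The Pcsk2 call was lost in 4, without KO replicate 2, with either library size scaling and with the replicate block, and those of Sstr1 and Sstr2 in 3 each, without KO replicate 3, without WT replicate 3 and with the block. The Glp1r call was lost without KO replicate 2.

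**Figure D5:**
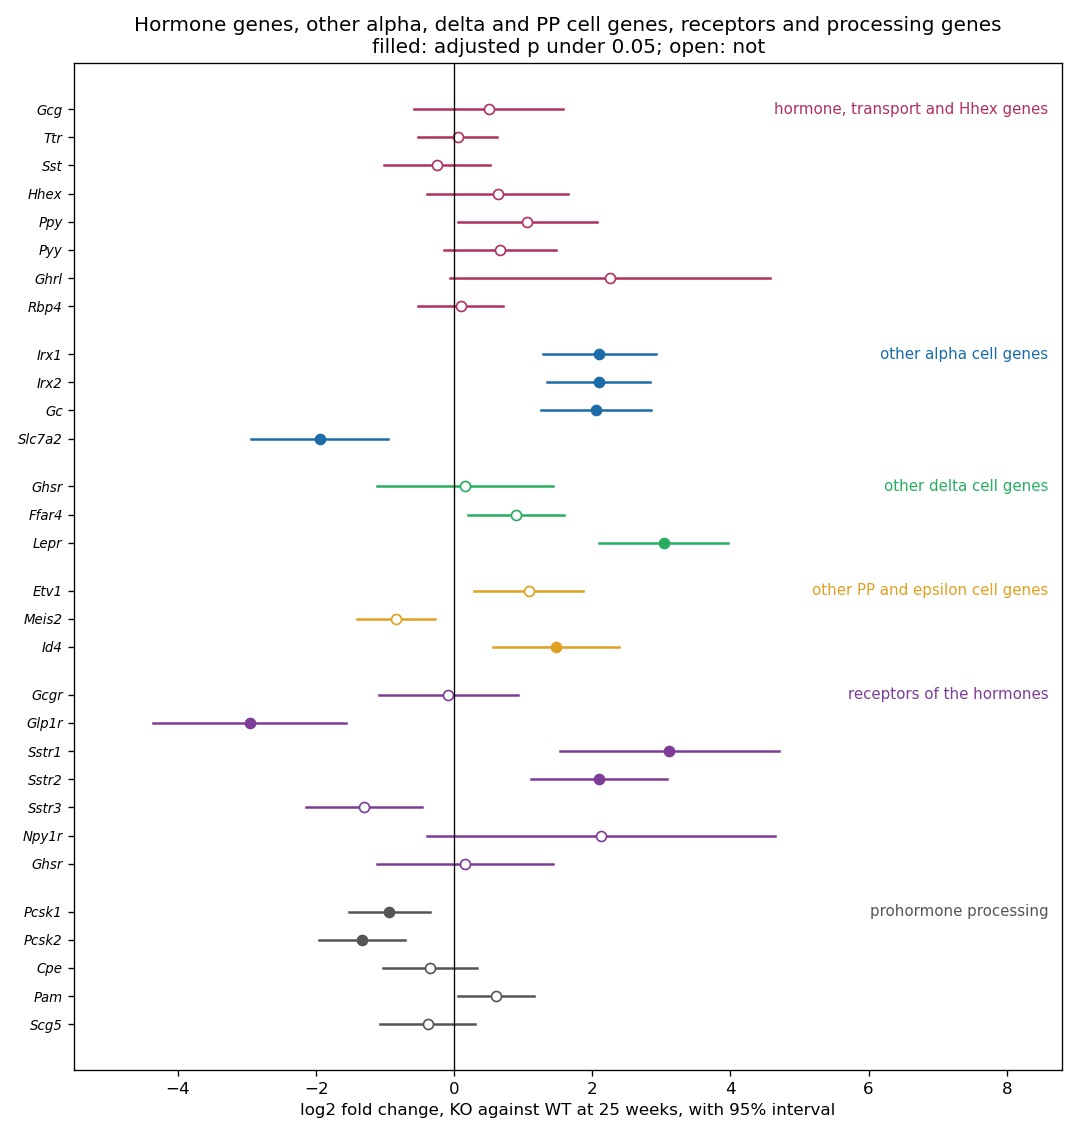
Log2 fold change of KO against WT at 25 weeks with 95% intervals for the 8 genes and 5 related lists, filled where the adjusted p is under 0.05. Genes with at most 3 reads in either group are left out; the 8 hormone, transport and Hhex genes are all open, while Irx1, Irx2, Gc, Lepr, Id4, Sstr1 and Sstr2 are filled on the right and Slc7a2, Glp1r, Pcsk1 and Pcsk2 on the left.

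Across the 16 libraries, which share genotype and age structure, Ppy and Pyy varied most alike of the 28 pairs (Pearson r = 0.92 on log2 CPM, and 0.87 after group means were removed). Their start sites are 6513 bp apart. Ttr and Rbp4 followed by the first measure (0.90 and 0.71), whereas Sst and Hhex, both of δ cells, had 0.49 and 0.65. After group means were removed, Sst with Pyy (0.83) and Ttr with Sst (0.72) came next after Ppy with Pyy. Among all genes tested, those nearest to Gcg were Gm14705, Gm43196 and Sema3e (0.94, 0.91 and 0.91), and Ffar4 was nearest to Rbp4 (0.93), followed by Auh and Ahsa1. Polq (0.89) and Bcl7c (0.87) were among the 3 nearest to Ppy. Polq was also among the 3 nearest to Pyy (with Trp53rkb and Cotl1) and to Ghrl (with Sult1d1 and Gata6). The nearest genes were Sdf4, Gm10131 and Erp29 for Ttr, Ppil1, Commd7 and Tmsb15b2 for Sst, and Gm6436, Gm16551 and Sorcs1 for Hhex, at r from 0.80 to 0.91. After group means were removed, r for the nearest genes named ran from 0.44 (Gm10131 with Ttr) to 0.85 (Gm14705 with Gcg). These values describe the libraries and carry no test.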

How the data were processed

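RNA of 16 libraries of hand-picked mouse islets was sequenced (TruSeq, HiSeq 2500). The authors aligned reads to GRCm38 with TopHat2 2.0.13 and counted them per gene with featureCounts (Subread 1.5.0-p1, Gencode annotation), and the deposited values are raw read counts. The deposited state map of WT islets (other: a letter for each 200 bp bin or run of bins, not a number) was made by the authors with EpicSeg. Gene names and start sites were taken from Gencode M21 on GRCm38, which named 47224 of 47937 genes. Ttr is described without sequence or position.

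Counts were tested with edgeR 4.0.16 (R 4.3.3): genes were kept by filterByExpr (minimum count 10), libraries scaled by TMM, and 1 quasi-likelihood model of 6 groups fitted to all 16 libraries (10 residual degrees of freedom, common biological coefficient of variation 0.424), with Benjamini-Hochberg adjustment over 18828 genes and a threshold of 0.05. Intervals are 95%. Depth was 4645393 to 22925359 reads, so 3 reads amounted to at most 0.654 CPM, and counting intervals cover counting error only. Ratio tests were exact permutation tests (scipy). Alternatives were DESeq2 1.42.0, other scalings, no filter, other controls, a replicate block and libraries left out. Leaving out the 4 interferon-high libraries and using RefSeq starts were chosen after seeing the data. The genes, lists and tests were chosen with earlier results of these data known. All 8 genes are named, list genes where they passed the threshold plus up to 4 more per list, and the 3 genes most alike to each, except that some genes are not reported here and were left out of list counts and sums. A list of single-cell barcodes, which holds no measurement, was not used.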

Additional observations from a re-analysis of the deposited data

How the results depend on the processing

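No alternative turned the direction of Gcg, Ppy, Pyy or Ghrl between KO and WT at 25 weeks. Libraries scaled by size alone shifted the median gene by up to 0.26 on the log2 scale (KO against WT at 25 weeks), against 0.08 with TMM. Of the genes called in that comparison, 1112 were higher and 580 lower, 1039 and 161 with library size alone, and 736 and 186 with library size without Ins1, Ins2, Iapp and Gcg. Causes of the following changes were not tested. At 25 weeks the KO and HET groups had 2 libraries each, and depth limits Ghrl, with 5 to 38 reads in the WT libraries. A library left alone in a group was assumed to vary like the others.

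Genes called between KO and WT at 8 weeks (118) were 450 with DESeq2, 892 with HET as the control and 503 with WT and HET pooled. They were 22 to 314 with 1 library left out. At 25 weeks (1692) they were 922 with library size without the 4 hormone genes, 2649 with pooled controls, and 760 to 2167 with 1 library left out. For the interaction (90) they were 21 with library size alone, 24 without the hormone genes, 420 with DESeq2, 37 in the 11 WT and KO libraries, 53 with HET as the control, 204 with pooled controls, 13 without the interferon-high libraries, and 33 to 127 with 1 left out. For HET against WT (0 at both ages) they were 5 with no filter and 400 with DESeq2 at 8 weeks. With 1 left out they were 0 to 601 at that age, and they were 2 with DESeq2 at 25 weeks. For age in WT (4) they were 1 with either library size, 9 with no filter, 234 with DESeq2 and 0 in the 11 libraries. They were 0 to 31 with 1 left out. For age in KO (473) they were 188 and 164 with the library sizes, 1165 with DESeq2, 281 in the 11 libraries, 159 without the interferon-high libraries, and 99 to 1838 with 1 left out. Of the 8 genes, called counts rose from 0 to 1 (Ghrl in the 11 libraries at 25 weeks), 1 (Gcg, HET against WT at 8 weeks, DESeq2), 3 (age in WT, DESeq2) and 2 (age in KO, DESeq2), and to 0 to 1 for age in KO with 1 library left out.

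Signs of small differences turned as follows, in log2 units. For KO against WT at 8 weeks, HET as the control gave 1.00 for Gcg, 0.68 for Ttr and 0.42 for Hhex. It gave 0.57 for Ppy and 0.26 for Ghrl. Pooled controls gave 0.17 for Gcg, 0.28 for Ttr, 0.26 for Ppy and 0.044 for Ghrl. Leaving out the interferon-high libraries gave 0.074 for Gcg, 0.20 for Ttr, 0.50 for Ppy and 0.17 for Ghrl. That compares KO replicate 1 with WT replicate 1 alone. Library size alone gave 0.14 for Ttr, 0.18 for Ppy and 0.071 for Ghrl, library size without the hormone genes gave 0.18, 0.21 and 0.089, and DESeq2 gave 0.0083 for Ppy. For KO against WT at 25 weeks, HET as the control gave 0.40 for Sst, library size without the hormone genes -0.066 and the 11 libraries -0.0069 for Ttr, and library size alone 0.15 for Gcgr. For the interaction, HET as the control gave -0.37 for Gcg, -0.65 for Ttr, 0.23 for Sst and -0.13 for Rbp4, pooled controls -0.24 for Ttr and -0.044 for Rbp4, library size without the hormone genes -0.24 and -0.15, and leaving out the interferon-high libraries -0.15 and -0.44. Leaving these out also gave 0.0038 for Rbp4 in HET against WT at 8 weeks, and -0.17 for Ppy and -0.22 for Pyy for age in KO. Library size without the hormone genes gave 0.026 for Gcg in HET against WT at 25 weeks and -0.023 for Ppy for age in KO, the 11 libraries gave -0.037 for the latter, and DESeq2 gave -0.008 for Ttr in HET against WT at 25 weeks.

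With 1 library left out, signs turned within these ranges: for KO against WT at 8 weeks, Ttr -0.23 to 0.12, Sst -0.15 to 0.29, Ppy -0.16 to 0.14, Pyy -0.084 to 0.33, Ghrl -0.31 to 0.14 and Rbp4 -0.18 to 0.22. At 25 weeks they were Ttr -0.14 to 0.18, Hhex -0.019 to 1.01, Rbp4 -0.064 to 0.21, Ghsr -0.85 to 0.68 and Gcgr -0.33 to 0.076. For the interaction they were Ttr -0.11 to 0.27, Pyy -0.12 to 0.95 and Rbp4 -0.12 to 0.26. For HET against WT they were Ghrl -1.32 to 0.14 at 8 weeks, and Gcg -0.65 to 0.26, Ttr -0.13 to 0.20 and Ghrl -3.71 to 1.26 at 25 weeks. For age in KO they were Ppy -0.57 to 0.42, Pyy -0.51 to 0.55 and Ghrl -1.39 to 0.16.

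The labels give same-numbered libraries no shared animal, batch or day. Deviations from the group means correlated from 0.163 to 0.457 in the 4 same-numbered pairs of a WT and a KO library, from -0.015 to 0.457 over all 9 same-numbered pairs, and from -0.528 to 0.45 in the 34 pairs with different numbers. Of the 12 libraries with such a partner, 9 correlated most with a same-numbered one, a hint from the data and not from the design, and the numbers were not taken as pairs. A replicate block left 3 residual degrees of freedom. It called 5 genes between KO and WT at 8 weeks, 713 at 25 weeks and 4 for the interaction. Of the 8 genes it called 1, Ghrl at 25 weeks (1.95, adjusted p = 0.0306). With the block, KO against WT at 8 weeks was -0.13 for Sst, 0.097 for Ppy, 0.33 for Ghrl and -0.19 for Rbp4, and at 25 weeks -0.083 for Ttr. HET against WT at 25 weeks was -0.41 for Ttr and -3.09 for Ghrl. Each block held libraries of a single age, so this fit cannot separate age from the blocks. For age in WT it gave 0.88 for Hhex, 0.042 for Ppy, 0.15 for Pyy and 2.37 for Ghrl. For age in KO it gave 3.99 for Ghrl. These age values depend on which blocks serve as the reference, and they do not test the age differences given above.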
